A study of Rattus norvegicus with 12 samples.

Results

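The constitutive proteasome subunits are described here in rat theca-interstitial cells that were exposed to lipopolysaccharide (LPS) or interleukin-1β (IL-1β). The group was taken by gene symbol: rows named Psma, Psmb, Psmc, Psmd, Psmf or Psmg followed by a number, without the inducible subunits Psmb8, Psmb9 and Psmb10, and with at least 100 counts in sum over the 12 libraries. Of the 30045 symbols in the count table, 41 had such a name and 39 passed the minimum. The 2 that did not were Psma8, a testis subunit with 26 counts, and Psmb11, a thymus subunit with 86 counts. Just inside stood Psmd10 with 955 counts and Psmg2 with 5198 counts. The rule used symbols and summed counts, not differences between groups.

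The proteasome is the barrel-shaped protease that breaks down proteins tagged with ubiquitin. Its core particle is built from outer rings of α subunits, which form the gate, and inner rings of β subunits, 3 of which (Psmb5, Psmb6 and Psmb7) carry the cutting sites. A regulatory particle caps the barrel: its base holds a ring of ATPases that unfold substrates and scaffold proteins that receive them, and its lid holds the enzyme that removes ubiquitin. In cells that meet LPS or IL-1β, the proteasome degrades the inhibitor that holds NF-kB in the cytoplasm, and interferons induce subunits that can replace the constitutive cutting ones. In steroid-producing cells it also degrades StAR, the protein that moves cholesterol into mitochondria.

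Theca-interstitial cells are the androgen-producing cells of the follicle wall and stroma. They came from wild type female Sprague Dawley rats on postnatal day 30 and were grown on fibronectin in McCoys 5A medium. For 48 h the cultures received LPS at 1 µg/ml (4 libraries), rat IL-1β (4 libraries; the labels do not give its dose separately) or vehicle as control (4 libraries). The labels name neither the number of animals nor whether replicates came from separate isolations, so p-values measure the spread between these libraries, which may be technical. Polyadenylated RNA was sequenced, and the table holds 25643226 to 28698783 counts per LPS library, 23193408 to 26836323 per IL-1β library and 20873934 to 32090924 per control library. The proteasome genes had 57 to 10824 counts per library, and at least 319 when Psmd10 is left aside. All 39 were among the 17330 genes tested. Both treatments were compared with the same 4 control libraries, so the comparisons with control are not independent of each other.

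Many markers of cell types moved with the treatments. The 10 theca markers had a summed level of 859 to 916 CPM (read counts of a gene scaled to a common library total) in LPS cultures, 939 to 993 in IL-1β cultures and 441 to 478 in control cultures, with 6 of the 10 higher and 1 lower with LPS, and 8 higher and 1 lower with IL-1β. Among them Insl3 was below 1 CPM in all 12 libraries, and Cyp17a1, the androgen-forming enzyme, was below 1 CPM in the 4 control libraries. The 12 macrophage markers summed to 51.8 to 58.0 CPM in LPS cultures, 59.1 to 63.1 in IL-1β cultures and 113 to 119 in control cultures, and 10 of the 12 were lower with LPS and 9 of the 12 with IL-1β (1 was higher with each). The 11 endothelial markers summed to 282 to 380 CPM in LPS cultures, 407 to 462 in IL-1β cultures and 190.4 to 225 in control cultures, with 10 of 11 higher with LPS and 11 of 11 with IL-1β. The 8 smooth muscle markers summed to 1896 to 2145 CPM in LPS cultures, 1591 to 1809 in IL-1β cultures and 4841 to 5252 in control cultures, with 7 of 8 lower with each treatment and Des higher with IL-1β. The 6 granulosa markers summed to 482 to 601 CPM in LPS cultures, 626 to 784 in IL-1β cultures and 461 to 505 in control cultures, with 2 higher and 1 lower with LPS, and 3 higher and 2 lower with IL-1β. Of all genes tested, 22.5% were called higher and 20.0% lower with LPS, and 24.7% higher and 23.0% lower with IL-1β. The granulosa counts with LPS are near those shares and are no result about these markers. Of all these markers, Cd163 had no count in 1 LPS and 1 control library and Cyp19a1 had none in 1 control library. In bulk RNA, fewer cells of a type and less RNA per cell cannot be told apart. The part of these shifts in the proteasome values below was not tested.

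The promoters of some genes named in the results are shown first, since many proteasome genes share short promoter elements. Psmd8, Psmd5 and Psmc2 fell with IL-1β, Psma6 rose with LPS, and Psmg3 rose with IL-1β while most of the group did not. The Psmg3 call was lost in 11 of 24 alternative runs, among them DESeq2. The sequences are the 250 bases before the annotated start, 5′ to 3′ along the gene, from RefSeq on the GRCr8 rat build, which is newer than the build of the counts. Capitals mark 3 short motifs on either strand: the core of the antioxidant response element (TGANNNNGC, read by Nfe2l1 and Nfe2l2, the factors known to drive proteasome genes), the CCAAT box (CCAAT, read by NF-Y) and the core of ETS family sites (CCGGAAG). Psmd8 lay at chr1:93608690-93608939, minus strand; Psmd5 at chr3:38548491-38548740, minus strand; Psmc2 at chr4:14162391-14162640, minus strand; Psma6 at chr6:78514097-78514346, plus strand; and Psmg3 at chr12:19923038-19923287, plus strand.
Psmd8: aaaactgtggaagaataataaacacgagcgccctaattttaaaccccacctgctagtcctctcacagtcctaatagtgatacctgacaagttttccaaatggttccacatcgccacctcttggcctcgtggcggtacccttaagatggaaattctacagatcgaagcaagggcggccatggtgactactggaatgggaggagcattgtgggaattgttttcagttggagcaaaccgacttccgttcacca
Psmd5: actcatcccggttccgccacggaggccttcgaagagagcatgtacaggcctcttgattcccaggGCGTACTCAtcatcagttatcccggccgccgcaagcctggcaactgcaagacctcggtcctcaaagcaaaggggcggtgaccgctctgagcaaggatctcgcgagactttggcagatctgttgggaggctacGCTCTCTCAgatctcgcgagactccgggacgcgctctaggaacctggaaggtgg
Psmc2: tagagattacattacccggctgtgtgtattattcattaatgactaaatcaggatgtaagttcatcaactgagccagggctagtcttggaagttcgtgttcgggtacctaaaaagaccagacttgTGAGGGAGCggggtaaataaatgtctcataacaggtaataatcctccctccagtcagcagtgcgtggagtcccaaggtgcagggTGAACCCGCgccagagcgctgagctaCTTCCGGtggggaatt
Psma6: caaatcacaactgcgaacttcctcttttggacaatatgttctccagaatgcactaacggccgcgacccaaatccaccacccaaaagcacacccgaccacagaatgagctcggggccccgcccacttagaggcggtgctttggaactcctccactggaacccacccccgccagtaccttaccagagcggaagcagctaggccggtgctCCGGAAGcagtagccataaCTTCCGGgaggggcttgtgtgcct
Psmg3: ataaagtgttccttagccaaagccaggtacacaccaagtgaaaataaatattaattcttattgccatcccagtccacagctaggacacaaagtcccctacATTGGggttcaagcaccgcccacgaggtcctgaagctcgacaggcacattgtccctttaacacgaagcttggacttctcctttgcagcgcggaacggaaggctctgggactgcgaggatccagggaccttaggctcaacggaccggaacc

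Psmd5 held antioxidant response cores 186 and 54 bases before its start. Psmc2 held them at 126 and 42 bases, and an ETS core at 16 bases. Psma6 held ETS cores at 43 and 24 bases, Psmg3 a CCAAT box at 150 bases, and Psmd8 none of the 3 motifs in this window. Promoters were found for 35 of the 39 genes, and not for Psma7, Psmd6, Psmd12 and Psmd14. Among the 35, the antioxidant response core stood in 15 (42.9%), against 34.7% of all 33469 rat promoters of the same length. The CCAAT box stood in 18 (51.4%), against 34.0%, and the ETS core in 10 (28.6%), against 7.27%. An NF-kB motif, searched on both strands, stood in 2 (5.71%; Psmd11 and Psmd13), against 6.33%. Matches of different motifs were counted separately: in 2 of the 35 promoters a CCAAT box and an antioxidant response core shared bases, and in 1 a CCAAT box and an NF-kB motif did. The 33469 promoters were not limited to genes tested here, whereas the 35 genes were all tested. A match describes letters and not a bound site.

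Across the whole group, levels moved little. With LPS, 2 of the 39 genes rose (Psma6 and Psma3) and 1 fell (Psmd8), whereas 22.5% of all genes tested were called higher, 20.0% lower and 42.5% in either direction. Without LPS replicate 1, 5 of the 39 rose and 2 fell, and without control replicate 2, 3 rose and 2 fell; without LPS replicate 3 or 4 or control replicate 3 or 4, 1 rose. The median log2 fold change was -0.00053 over the 39 genes and 0.0098 over all genes. With IL-1β, 20 of the 39 fell and 1 rose (Psmg3), against 23.0% of all genes called lower, 24.7% called higher and 47.7% in either direction. The median log2 fold change with IL-1β was -0.078 over the 39 genes and 0.0094 over all genes. In 19 of the 39, all 4 IL-1β libraries lay below all 4 control libraries, which was so for 21.4% of all genes, and in 0 all 4 lay above, against 22.8%. With LPS, the groups were so separated in 1 gene upward and 1 downward, against 20.1% and 18.2% of all genes. Calls in these counts rest on edgeR's quasi-likelihood test, with p-values adjusted by Benjamini-Hochberg over the 17330 genes and a threshold of 0.05.

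The IL-1β count rested on whether scaling factors were applied. With upper-quartile factors the IL-1β calls of all 39 genes were the same as with the TMM factors of the main fit. With DESeq2 size factors 37 were the same, while Psmd6 was also called lower and Psmg3 was not called. Scaled by library size alone, without the TMM factors, 6 of the 39 fell (Psmc2, Psmd1, Psmd4, Psmd5, Psmd8 and Psmd13) and 2 rose (Psmg1 and Psmg3), and the median was -0.028. Under that scaling the median of all genes was 0.060, so the 39 genes lay 0.088 below it, as they did with TMM factors (0.088). Higher genes made up 64.1% of all IL-1β calls under that scaling and 51.7% with TMM factors. For LPS they made up 63.4% and 53.0%, and 9 of the 39 genes rose with LPS under library size alone, with a median of 0.038.

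**Figure D1:**
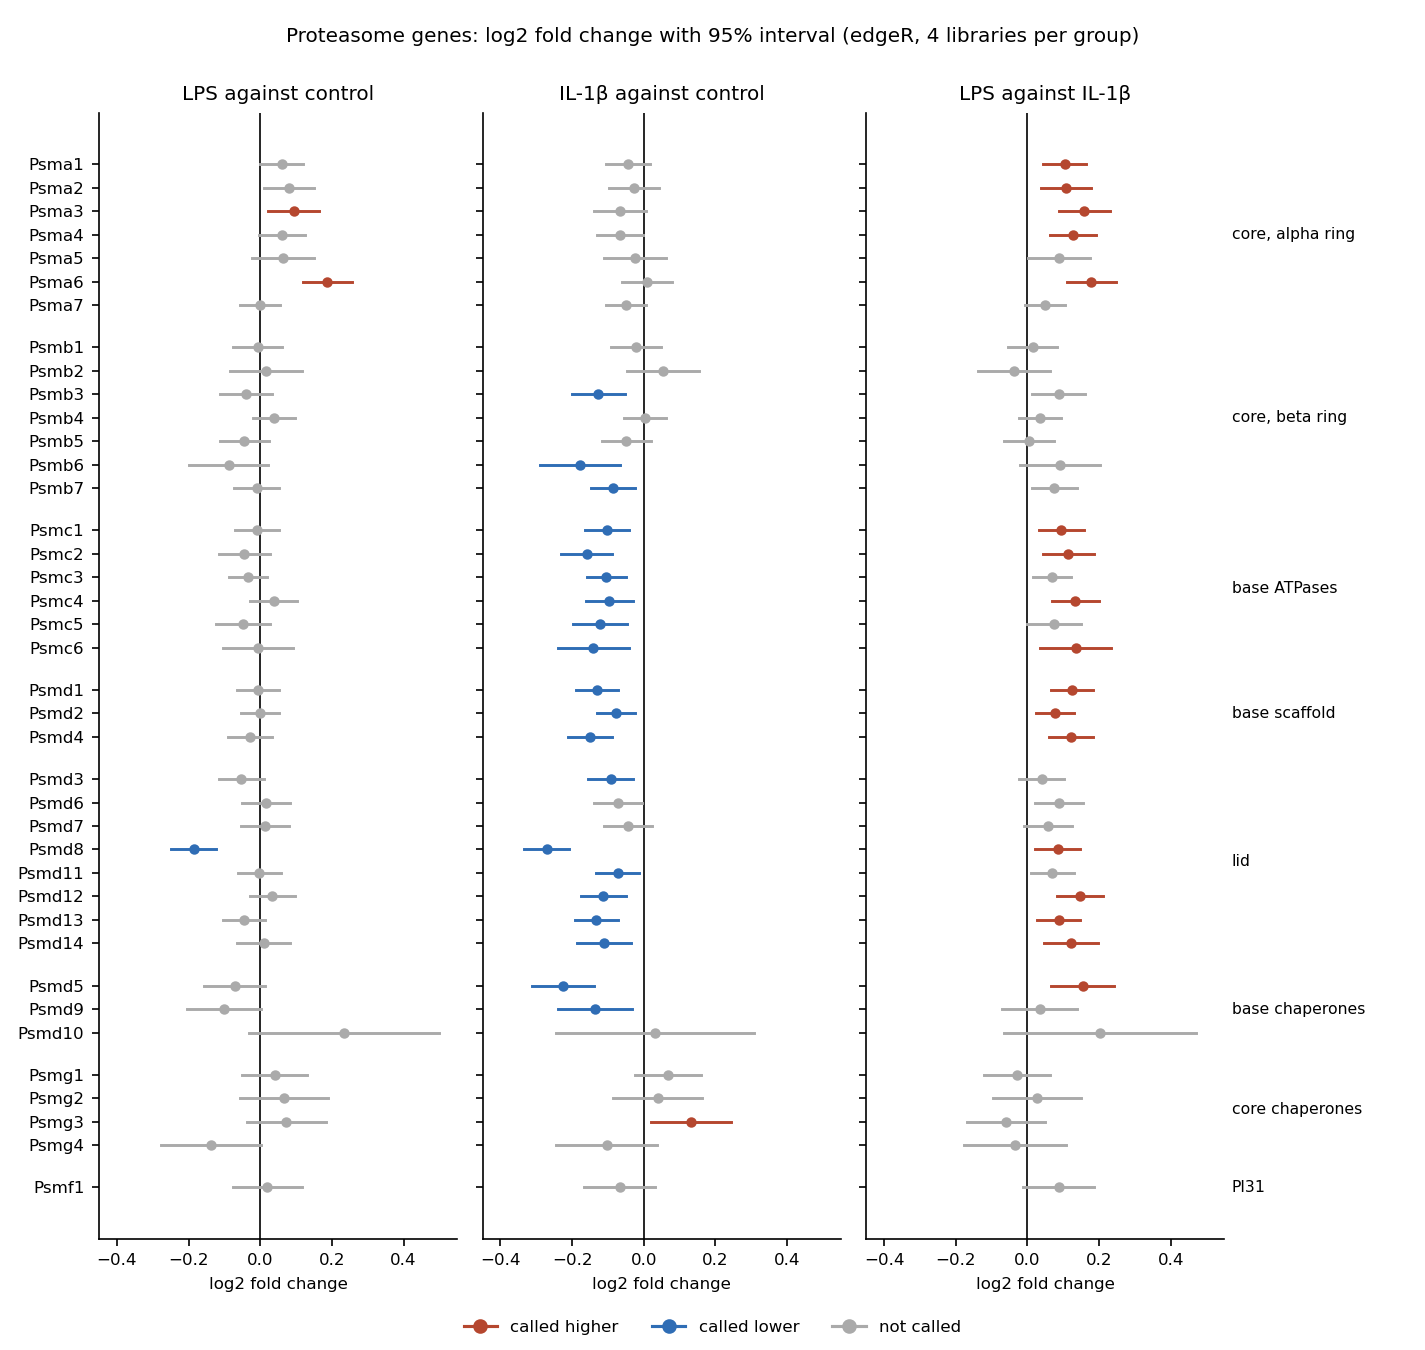
Log2 fold change (x axis) of the 39 proteasome genes (y axis, by role) with its 95% interval, for LPS against control, IL-1β against control and LPS against IL-1β, from edgeR with 4 libraries per group. Colours mark genes called higher or lower: 2 and 1 with LPS, 1 and 20 with IL-1β, and 17 and 0 for LPS against IL-1β; with library size alone as scaling the IL-1β count of lower genes was 6.

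The fold changes were small. No gene of the group changed by more than 1.25-fold (0.32 on the log2 scale) in any comparison, against 25.4% of all genes with LPS and 29.4% with IL-1β. For 38 of the 39 genes the whole 95% interval lay within 1.25-fold in each comparison. The exception with IL-1β was Psmd8 (-0.33 to -0.21), and with LPS, against control or IL-1β, it was Psmd10, the gene with the fewest counts (-0.032 to 0.50 against control and -0.065 to 0.47 against IL-1β). The median standard error of a log2 fold change was 0.033 for LPS and 0.034 for IL-1β. Between replicates, the pooled coefficient of variation of a gene had a median of 3.13% (1.47% to 11.9%), while counting error alone gives a median of 1.92%.

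**Figure D2:**
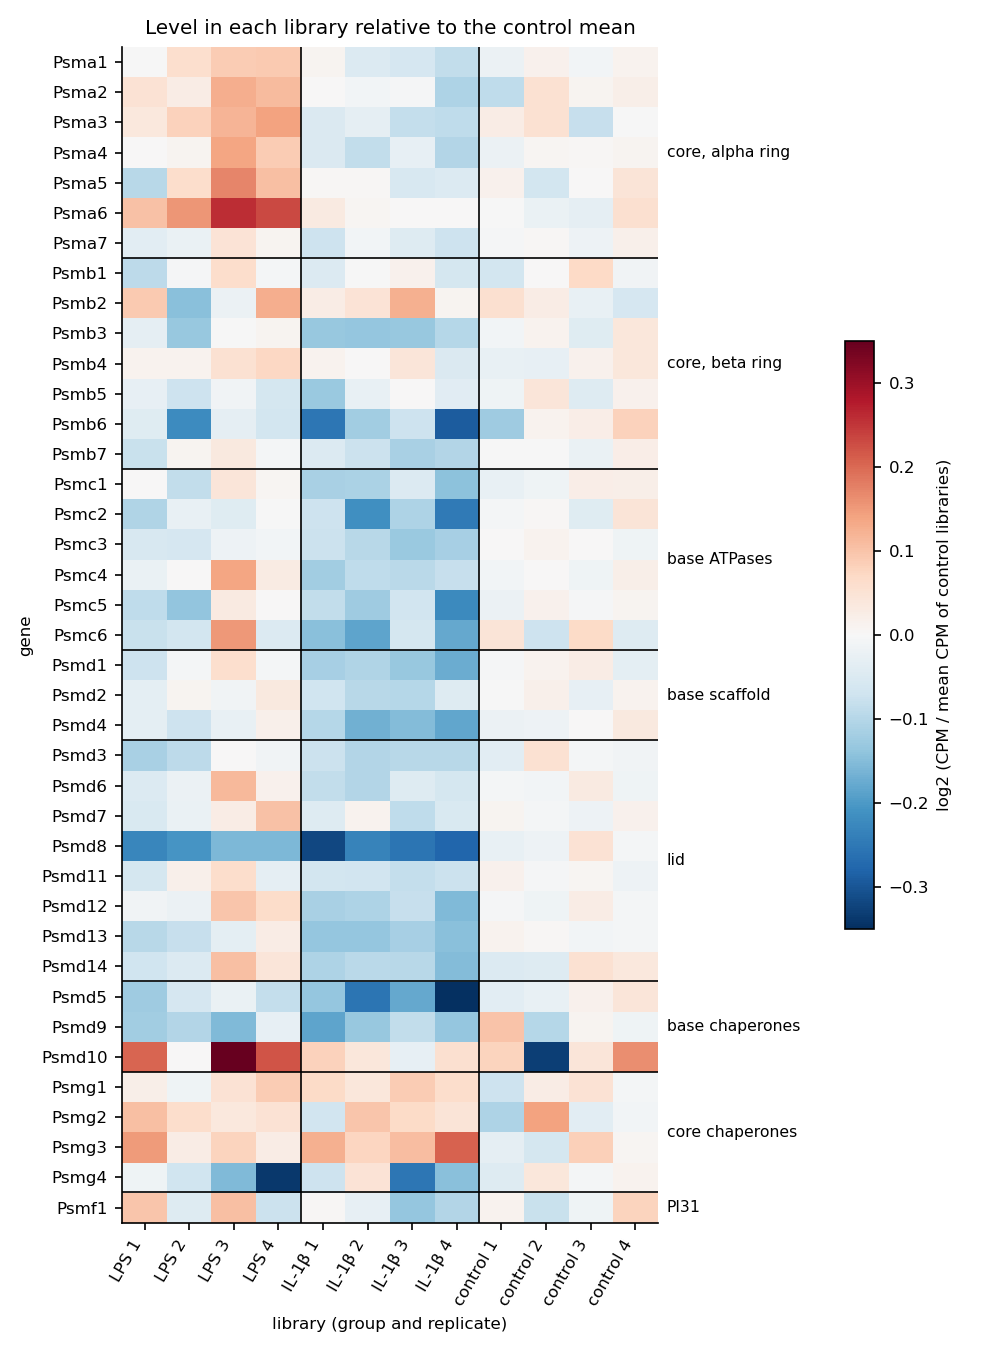
Level of the 39 proteasome genes (rows, by role) in each library (columns), as the log2 of CPM over the mean CPM of the 4 control libraries. Most ATPase, scaffold and lid rows are below the control mean in all 4 IL-1β libraries, and LPS replicates 3 and 4 are above LPS replicates 1 and 2 in many rows.

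The α ring had the highest median change with LPS among the role groups. Of its 7 genes, 2 rose with LPS, near the 22.5% of all genes called higher. None was called with IL-1β, against 47.7% of all genes in either direction. At an unadjusted p under 0.05, 1 fell with IL-1β (Psma4), and DESeq2 and limma-voom called none. Psma3 was called lower with IL-1β without control replicate 3 (-0.090). Their median log2 fold change was 0.063 with LPS and -0.044 with IL-1β. Psma6, a subunit of the gate ring, had 103, 107, 115 and 113 CPM in LPS cultures, 98.3, 96.6, 96.2 and 96.3 CPM in IL-1β cultures and 96.1, 94.7, 94.1 and 99.9 CPM in control cultures. All 4 LPS libraries lay above all others, and the IL-1β and control libraries overlapped. Psma6 rose with LPS, with a log2 fold change of 0.19 ± 0.033 (SE; adjusted p = 3.34e-05), and gave 0.0089 with IL-1β (adjusted p = 0.851). The Psma6 call with LPS held in every alternative run.

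Psma3, another α subunit, had 70.2, 72.3, 74.3 and 75.4 CPM in LPS cultures, 66.0, 66.9, 64.5 and 64.3 CPM in IL-1β cultures and 69.6, 71.0, 64.6 and 68.3 CPM in control cultures. The lowest LPS library lay within the control range, while all LPS libraries lay above the IL-1β ones. Its log2 fold change with LPS was 0.094 ± 0.035 (SE; adjusted p = 0.0306). That call was lost without LPS replicate 3 (0.086) or 4 (0.078) or control replicate 3 (0.069) or 4 (0.092), and by DESeq2 (0.086). Psma7 had 149, 151, 158 and 154 CPM in LPS cultures, 146, 152, 148 and 146 CPM in IL-1β cultures and 153, 154, 151 and 155 CPM in control cultures. Its groups overlapped, with a log2 fold change of -0.00053 with LPS (95% interval -0.057 to 0.056). Psma4 had 129, 130.4, 142 and 138 CPM in LPS cultures, 125, 122, 127 and 120.4 CPM in IL-1β cultures and 127, 129.9, 129.9 and 130.3 CPM in control cultures. All IL-1β libraries lay below the control libraries by a small margin, but the change of -0.066 missed the threshold (adjusted p = 0.0847). The other 3 α genes, Psma1, Psma2 and Psma5, had log2 fold changes of 0.060 to 0.080 with LPS and of -0.044 to -0.024 with IL-1β, none past the test. Psma2, at an adjusted p of 0.0588 with LPS, was called without LPS replicate 2 (0.097) or control replicate 2 (0.098). Psma1, Psma4 and Psma5 were called higher without LPS replicate 1 (0.079, 0.080 and 0.11).

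In the β ring 3 of 7 genes fell with IL-1β (Psmb3, Psmb6 and Psmb7), against 23.0% of all genes called lower. None was called with LPS, against 42.5% of all genes in either direction, nor at an unadjusted p under 0.05, nor by DESeq2 or limma-voom. Of the cutting subunits, Psmb6, which cuts after acidic residues, had 37.2, 32.9, 37.5 and 36.6 CPM in LPS cultures, 32.2, 35.2, 36.5 and 31.3 CPM in IL-1β cultures and 35.2, 38.6, 38.9 and 40.6 CPM in control cultures. The lowest control library lay within the IL-1β range. Psmb6 fell with IL-1β, with a log2 fold change of -0.18 ± 0.054 (SE; adjusted p = 0.00854), and gave -0.087 with LPS (adjusted p = 0.202). Psmb7, which cuts after basic residues, had 97.3, 103, 105 and 102 CPM in LPS cultures, 99.3, 97.5, 94.9 and 95.6 CPM in IL-1β cultures and 103, 103, 101 and 104 CPM in control cultures. All IL-1β libraries lay below all control libraries, with a log2 fold change of -0.086 ± 0.030 (SE; adjusted p = 0.0211). That call was lost without control replicate 4 (-0.078) or IL-1β replicate 3 (-0.076). Psmb5, which cuts after hydrophobic residues and is the main target of proteasome inhibitor drugs, had 76.4, 74.1, 77.3 and 74.6 CPM in LPS cultures, 71.2, 76.5, 78.0 and 75.8 CPM in IL-1β cultures and 77.1, 80.2, 75.5 and 78.8 CPM in control cultures. Its groups overlapped, and neither log2 fold change passed the test (-0.044 with LPS, 95% interval -0.11 to 0.024; -0.048 with IL-1β, 95% interval -0.12 to 0.021).

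The β subunits without cutting sites differed among themselves. Psmb3 had 62.1, 57.9, 63.5 and 63.9 CPM in LPS cultures, 57.9, 57.8, 57.9 and 59.2 CPM in IL-1β cultures and 63.0, 64.1, 61.6 and 65.2 CPM in control cultures. The 4 IL-1β libraries lay close together below every control library, and Psmb3 fell, with a log2 fold change of -0.13 ± 0.036 (SE; adjusted p = 0.0046). Psmb2 had 90.5, 76.6, 83.7 and 92.7 CPM in LPS cultures, 86.5, 87.8, 92.6 and 85.4 CPM in IL-1β cultures and 88.3, 86.4, 83.3 and 81.5 CPM in control cultures. Its LPS libraries spread widely on both sides of the control libraries, and its log2 fold change was 0.016 with LPS and 0.053 with IL-1β, neither past the test. Psmb4 had 154, 154, 158 and 160.4 CPM in LPS cultures, 154, 153, 157 and 147 CPM in IL-1β cultures and 149.7, 149.5, 154 and 157 CPM in control cultures, with overlapping groups and log2 fold changes of 0.038 with LPS and 0.0024 with IL-1β. Psmb1 gave -0.0069 with LPS and -0.021 with IL-1β, neither past the test. Under library size alone the 3 β calls with IL-1β were lost (-0.076 for Psmb3, -0.13 for Psmb6 and -0.036 for Psmb7). Psmb4 was called higher with LPS under that scaling (0.077).

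The inducible cutting subunits, which can take the place of Psmb5, Psmb6 and Psmb7, give the setting for these values. The ratio of their summed counts to those of the 3 constitutive ones was 0.815 to 0.851 in LPS libraries, 0.655 to 0.731 in IL-1β libraries and 0.727 to 0.781 in control libraries. LPS libraries lay above all others. Psmb9 and Psmb10 rose with LPS, by 0.24 and 0.12, and Psmb8 was not called with LPS (-0.038). With IL-1β all 3 fell, Psmb8 with a log2 fold change of -0.35 ± 0.042 (SE; adjusted p = 9.08e-08), Psmb9 with -0.17 and Psmb10 with -0.17. Of all genes, 22.5% were called higher with LPS and 23.0% lower with IL-1β.

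All 6 base ATPases fell with IL-1β, with a median of -0.11, against 23.0% of all genes called lower. None was called with LPS (median -0.021), against 42.5% of all genes in either direction. An unadjusted p under 0.05, DESeq2 and limma-voom also gave none with LPS. Psmc4 was called higher with LPS under library size alone (0.076), and Psmc5 lower without LPS replicates 3 and 4 (-0.11). Psmc2 had 134, 142, 140.0 and 144 CPM in LPS cultures, 137, 124, 134 and 121 CPM in IL-1β cultures and 143, 145, 140.1 and 149 CPM in control cultures. The IL-1β libraries lay below all control libraries, in part by a wide margin, and LPS libraries overlapped with control. Psmc2 fell, with a log2 fold change of -0.16 ± 0.035 (SE; adjusted p = 0.000414) with IL-1β and gave -0.044 with LPS (adjusted p = 0.324). It was the sole ATPase that kept its call with library size alone. Psmc3 had 170.0, 169.7, 175 and 176 CPM in LPS cultures, 168, 165, 161 and 163 CPM in IL-1β cultures and 177, 178, 177 and 175 CPM in control cultures, and fell, with a log2 fold change of -0.10 ± 0.026 (SE; adjusted p = 0.00153). Its libraries were tight within each group, and all IL-1β libraries lay below all control libraries.

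Psmc4 had 107, 109, 120.2 and 111 CPM in LPS cultures, 100.4, 103, 102 and 103 CPM in IL-1β cultures and 109, 109, 108 and 111 CPM in control cultures. Its IL-1β libraries all lay below control, and LPS replicate 3 stood above the other LPS libraries. Its log2 fold change was -0.097 ± 0.032 (SE; adjusted p = 0.014) with IL-1β and 0.037 with LPS (adjusted p = 0.369). Psmc5 had 95.8, 92.7, 104 and 102 CPM in LPS cultures, 96.0, 93.5, 97.4 and 87.4 CPM in IL-1β cultures and 100.4, 103, 102 and 103 CPM in control cultures. It fell with IL-1β, with a log2 fold change of -0.12 ± 0.037 (SE; adjusted p = 0.0072). IL-1β replicate 4 was the lowest of its libraries. Psmc6 had 100.1, 101, 117 and 102 CPM in LPS cultures, 95.5, 93.0, 101 and 93.4 CPM in IL-1β cultures and 109, 101, 111 and 102 CPM in control cultures. The IL-1β range reached into the control range, and LPS replicate 3 stood far above the other LPS libraries. Its log2 fold change with IL-1β was -0.14 ± 0.047 (SE; adjusted p = 0.02), a call that was lost without control replicate 1 (-0.12) or 3 (-0.12) or IL-1β replicate 2 (-0.13) or 4 (-0.13). Psmc1 completed the ring with -0.10 ± 0.030 (SE; adjusted p = 0.00594).

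The base scaffold genes all fell with IL-1β (3 of 3, median -0.13), against 23.0% of all genes called lower. None of them was called with LPS, against 42.5% of all genes in either direction. Nor was any called with LPS at an unadjusted p under 0.05 or by DESeq2 or limma-voom. Psmd4, a receptor for ubiquitin chains, had 106, 103, 107 and 109.8 CPM in LPS cultures, 101, 96.7, 97.8 and 95.8 CPM in IL-1β cultures and 107, 107, 109 and 111 CPM in control cultures. All IL-1β libraries lay below the other 8 libraries, while LPS and control libraries overlapped. Psmd4 fell, with a log2 fold change of -0.15 ± 0.030 (SE; adjusted p = 0.000135) with IL-1β. Psmd1, a large toroid-shaped scaffold, had 231, 241, 253 and 241 CPM in LPS cultures, 224, 226, 221 and 215 CPM in IL-1β cultures and 242, 245, 247 and 237 CPM in control cultures. The IL-1β libraries again lay below all others, and Psmd1 fell, with a log2 fold change of -0.13 ± 0.029 (SE; adjusted p = 0.000393). Psmd2, the scaffold that docks ubiquitin shuttle proteins, had 336, 346, 341 and 352 CPM in LPS cultures, 328, 321, 321 and 333 CPM in IL-1β cultures and 343, 348, 337 and 347 CPM in control cultures. Its IL-1β libraries were the lowest, by a small margin, with -0.078 ± 0.026 (SE; adjusted p = 0.0143). Psmd4 and Psmd1 kept their calls with library size alone, and Psmd2 did not (-0.028).

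In the lid, 6 of 8 genes fell with IL-1β, with a median of -0.10 over the 8, and 1 fell with LPS. Of all genes, 23.0% were called lower with IL-1β and 20.0% with LPS. Psmd8, known in yeast as Rpn12, a late-joining lid subunit, had the largest change with IL-1β in the group. It had 93.1, 94.5, 97.7 and 97.8 CPM in LPS cultures, 87.4, 92.7, 91.2 and 89.9 CPM in IL-1β cultures and 107, 108, 113 and 108 CPM in control cultures. All 8 treated libraries lay below all 4 control libraries, and IL-1β libraries lay below LPS libraries by a small margin. The call of LPS over IL-1β (0.085, adjusted p = 0.0476) was lost in 18 of 24 alternative runs. Psmd8 fell with both, with log2 fold changes of -0.19 ± 0.030 (SE; adjusted p = 1.14e-05) with LPS and -0.27 ± 0.031 (SE; adjusted p = 2.12e-08) with IL-1β. Both calls against control held in every alternative run. On the newer GRCr8 annotation the span of Psmd8 lies within that of a long gene model, LOC103689966, which has its own row and moved the other way (0.34 with LPS and 0.41 with IL-1β). How reads over both were counted is not given in the sources used here.

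**Figure D3:**
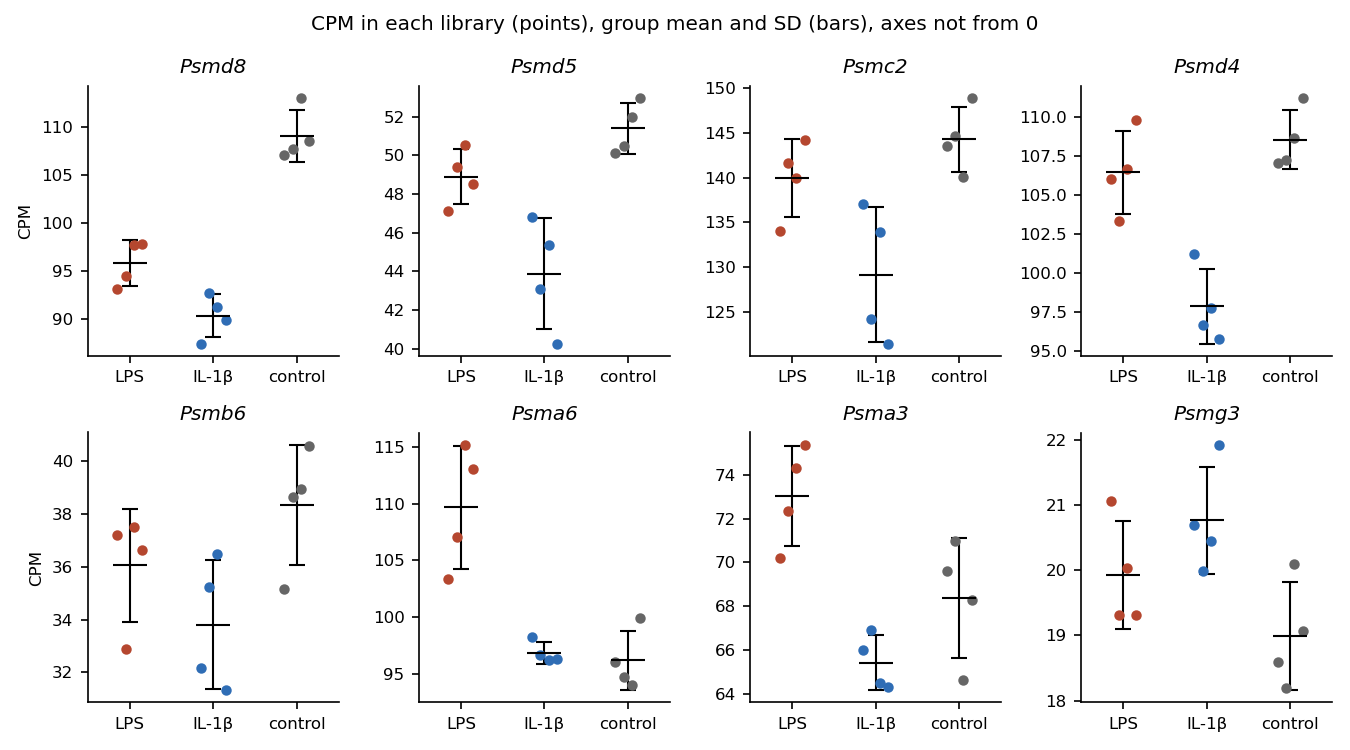
CPM of 8 proteasome genes in each library (points, with the group mean and SD, n = 4; y axes do not start at 0) for LPS, IL-1β and control cultures. Psmd8 is lower in all 8 treated libraries, Psmd5 and Psmd4 are lowest in all 4 IL-1β libraries, Psmc2 is lower in all 4 IL-1β libraries than in the control libraries, and Psma6 is highest in LPS libraries.

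The other lid genes showed smaller changes. Psmd12 had 107, 107, 116 and 113 CPM in LPS cultures, 100.1, 100.4, 102 and 97.2 CPM in IL-1β cultures and 108, 107, 110.2 and 108 CPM in control cultures. The IL-1β libraries lay below all others, and Psmd12 fell, with a log2 fold change of -0.11 ± 0.031 (SE; adjusted p = 0.00372). Psmd3 had 127, 129, 137 and 136 CPM in LPS cultures, 130.2, 128, 128 and 128 CPM in IL-1β cultures and 134, 142, 137 and 136 CPM in control cultures. Its IL-1β libraries lay below the control libraries, and the log2 fold change was -0.092 ± 0.030 (SE; adjusted p = 0.0141), a call that was lost without control replicate 2 (-0.075). Psmd7, the partner of the ubiquitin-removing enzyme, had 113, 115, 119 and 126 CPM in LPS cultures, 113, 118, 109.9 and 113 CPM in IL-1β cultures and 118, 116, 116 and 118 CPM in control cultures. Its groups overlapped and neither change passed the test (0.014 with LPS, 95% interval -0.053 to 0.080; -0.044 with IL-1β, 95% interval -0.11 to 0.023). Psmd14, the ubiquitin-removing enzyme itself, fell, with a log2 fold change of -0.11 ± 0.037 (SE; adjusted p = 0.0138) with IL-1β, and the call was lost without control replicate 3 (-0.095) or 4 (-0.099). Psmd13 fell, with a log2 fold change of -0.13 ± 0.029 (SE; adjusted p = 0.000403), and held with library size alone. Psmd11, the clamp between lid and core, gave -0.072 ± 0.029 (SE; adjusted p = 0.0433), a call lost without any 1 of the control or IL-1β libraries (-0.079 to -0.068). Psmd6 missed the threshold at -0.073 (adjusted p = 0.0686), although all its IL-1β libraries lay below all control libraries. It passed in 7 of 24 alternative runs, among them DESeq2 size factors (-0.080), 8 libraries (-0.072) and without LPS replicate 3 (-0.073).

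The chaperones that build the proteasome did not move as one group. Of the 3 base chaperones, which leave before the finished particle forms, Psmd5 and Psmd9 fell with IL-1β, against 23.0% of all genes called lower. Psmd5 had 47.1, 49.4, 50.6 and 48.5 CPM in LPS cultures, 46.8, 43.1, 45.4 and 40.3 CPM in IL-1β cultures and 50.1, 50.5, 52.0 and 52.9 CPM in control cultures. Its IL-1β libraries lay below all others, with IL-1β replicate 4 the lowest. Psmd5 fell, with a log2 fold change of -0.23 ± 0.043 (SE; adjusted p = 6.76e-05) with IL-1β, the second largest change of the group, and gave -0.072 with LPS (adjusted p = 0.177). Psmd9 had 24.1, 24.5, 23.6 and 25.8 CPM in LPS cultures, 23.1, 23.9, 24.7 and 23.9 CPM in IL-1β cultures and 28.1, 24.5, 26.4 and 26.0 CPM in control cultures. Its IL-1β and control libraries overlapped, and its log2 fold change of -0.14 ± 0.051 (SE; adjusted p = 0.0287) was no longer called without control replicate 1 (-0.098) or 3 (-0.13) or IL-1β replicate 1 (-0.12) or 2 (-0.14). Psmd9 was called lower with LPS without control replicate 2 (-0.13). Psmd10, known as the oncoprotein gankyrin, had 3.22, 2.80, 3.98 and 3.25 CPM in LPS cultures, 2.96, 2.87, 2.74 and 2.91 CPM in IL-1β cultures and 2.95, 2.22, 2.88 and 3.13 CPM in control cultures. At so few counts its intervals were wide (-0.032 to 0.50 with LPS, -0.24 to 0.31 with IL-1β), and a difference was not detectable at this depth.

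The 4 core chaperones, which line up the α ring, included the 1 gene that rose with IL-1β. That count is near the 24.7% of all genes called higher. Psmg3 had 21.1, 19.3, 20.0 and 19.3 CPM in LPS cultures, 20.7, 20.0, 20.4 and 21.9 CPM in IL-1β cultures and 18.6, 18.2, 20.1 and 19.1 CPM in control cultures. The lowest IL-1β library lay within the control range. Its log2 fold change was 0.13 ± 0.054 (SE; adjusted p = 0.0459) with IL-1β and 0.073 with LPS (adjusted p = 0.296). The IL-1β call was lost without control replicate 1 (0.12), 2 (0.11) or 4 (0.13), or IL-1β replicate 1 (0.13), 3 (0.14) or 4 (0.10), and by DESeq2. Its partner Psmg4 had 17.3, 16.7, 15.7 and 13.9 CPM in LPS cultures, 16.7, 18.1, 14.7 and 15.8 CPM in IL-1β cultures and 17.0, 18.0, 17.4 and 17.6 CPM in control cultures. LPS replicate 4 was the lowest, and neither change passed the test (-0.14 with LPS, -0.10 with IL-1β), although Psmg4 was called lower with LPS without LPS replicate 1 (-0.18). Psmg2 had 17.2, 16.7, 16.4 and 16.5 CPM in LPS cultures, 15.2, 17.1, 16.7 and 16.5 CPM in IL-1β cultures and 14.8, 17.6, 15.6 and 15.8 CPM in control cultures, with overlapping groups. Psmg1, which pairs with Psmg2, gave 0.040 with LPS and 0.069 with IL-1β. Psmf1, the inhibitor protein PI31, had 43.6, 39.5, 43.8 and 38.7 CPM in LPS cultures, 40.9, 40.0, 37.1 and 38.0 CPM in IL-1β cultures and 41.1, 38.6, 40.3 and 43.0 CPM in control cultures. Its groups overlapped, with 0.020 with LPS (95% interval -0.077 to 0.12) and -0.067 with IL-1β (95% interval -0.17 to 0.031).

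The balance between the 2 particles differed between groups. With IL-1β, 15 of the 17 base and lid genes fell (median -0.11), against 3 of the 14 core genes (median -0.046) and 23.0% of all genes, to which the count of core genes is close. With library size alone 5 of the 17 and 0 of the 14 fell with IL-1β. With LPS, 1 of the 17 base and lid genes fell and 0 rose (median -0.0065). Of the 14 core genes 2 rose and 0 fell (median 0.027). Of all genes, 22.5% were called higher and 20.0% lower with LPS. Base and lid genes summed to 2316 to 2466 CPM with LPS and 2410 to 2430 in control. Core genes summed to 1434 to 1528 CPM with LPS and 1423.5 to 1460.7 in control, so both sums overlapped. The summed CPM of the 17 base and lid genes over that of the 14 core genes gives 1 ratio per library, in which the scaling of the library cancels. It is a ratio of counts that are not set per transcript length, so it compares libraries and is not a stoichiometry. The ratio was 1.62, 1.62, 1.61 and 1.61 in LPS libraries, 1.60, 1.58, 1.59 and 1.61 in IL-1β libraries and 1.69, 1.67, 1.69 and 1.66 in control libraries. All 8 treated libraries lay below all 4 control libraries, and LPS and IL-1β libraries overlapped. The means were 1.62 ± 0.0057 with LPS, 1.59 ± 0.014 with IL-1β and 1.68 ± 0.017 in control (SD, n = 4 each). Without Psmd2, the gene with the most counts, the ratio was 1.38 to 1.39 in LPS, 1.35 to 1.37 in IL-1β and 1.42 to 1.46 in control libraries. With every gene weighted equally, the mean log2 CPM of the base and lid genes exceeded that of the core genes by 0.39 to 0.42 in LPS, 0.37 to 0.40 in IL-1β and 0.44 to 0.48 in control libraries. The ratio was chosen after the values of the genes were seen, and no test was made of it.

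The genes together held 0.402%, 0.403%, 0.420% and 0.412% of all counts in LPS libraries, 0.391%, 0.390%, 0.394% and 0.380% in IL-1β libraries and 0.396%, 0.396%, 0.399% and 0.399% in control libraries. The IL-1β libraries were the lowest and the LPS libraries the highest, without overlap between groups. These shares rest on library size alone. With TMM factors, the median log2 ratio of the 39 genes to their control mean was -0.034, -0.023, 0.049 and 0.014 in LPS libraries, -0.072, -0.085, -0.080 and -0.10 in IL-1β libraries and -0.0086, 0.0025, 0.0017 and 0.013 in control libraries, so that LPS and control libraries overlapped and the IL-1β libraries were still the lowest. LPS replicates 3 and 4 stood above the other LPS libraries on both scales, and they also stood apart on the second principal component of all genes (-24.7 and -21.3, against -10.5 and -12.6 for LPS replicates 1 and 2).

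**Figure D4:**
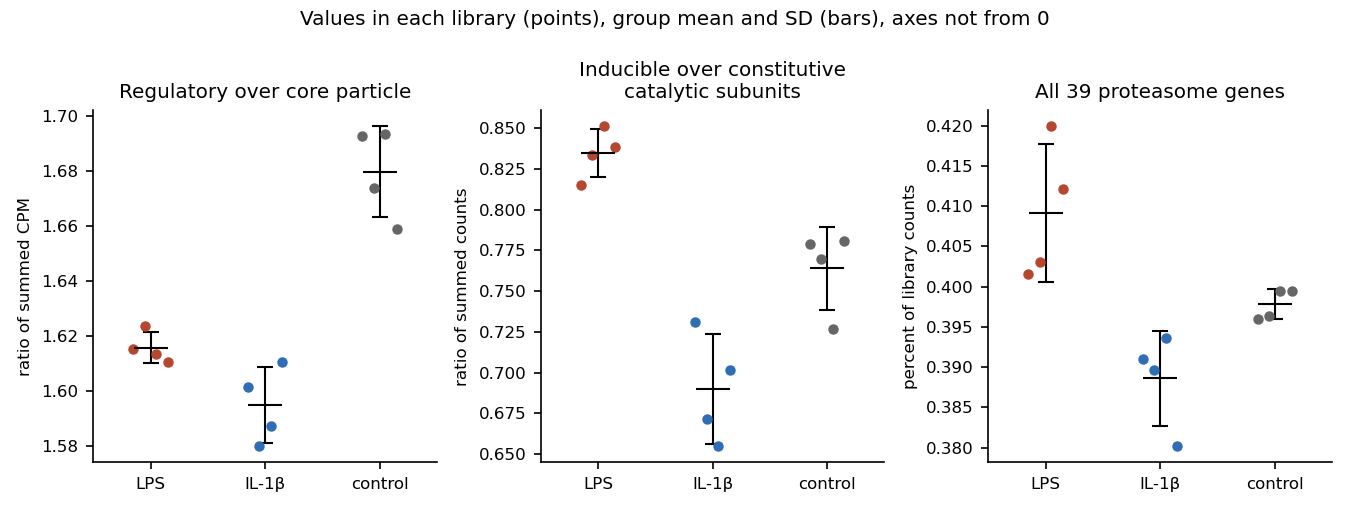
Values in each library (points, with the group mean and SD, n = 4; y axes do not start at 0) for LPS, IL-1β and control cultures: the ratio of regulatory to core particle CPM, the ratio of inducible to constitutive cutting subunit counts, and the percent of counts on the 39 genes. The first ratio is 1.58 to 1.62 in treated and 1.66 to 1.69 in control libraries.

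Set directly against each other, LPS cultures were higher than IL-1β cultures in 17 of the 39 genes, against 11.3% of all genes, and lower in 0, against 10.6%. DESeq2, limma-voom and an unadjusted p under 0.05 in edgeR also gave 0 lower. The median log2 fold change of LPS over IL-1β was 0.087, against -0.0023 over all genes. In 15 of the 39 all LPS libraries lay above all IL-1β libraries, which was so for 11.1% of all genes, and in 0 below, against 10.6%. Called in either direction were 17 of 39, against 21.9% of all genes. These were 5 of 7 α genes, 4 of 6 ATPases, 3 of 3 scaffold genes, 4 of 8 lid genes and 1 base chaperone, with none from the β ring, the core chaperones or Psmf1. In the β ring 2 genes were higher at an unadjusted p under 0.05 in edgeR and 0 by DESeq2 or limma-voom, and in the core chaperones and Psmf1 there were 0 by each. Psma6 gave 0.18 ± 0.033 (SE; adjusted p = 0.000239), Psma3 0.16 ± 0.035 (SE; adjusted p = 0.00144), Psmd5 0.15 ± 0.043 (SE; adjusted p = 0.00971) and Psmd12 0.15 ± 0.031 (SE; adjusted p = 0.000996). In these 4 genes every LPS library lay above every IL-1β library.

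How many genes differed between the treatments depended on which libraries were kept. Without LPS replicates 3 and 4, 2 of the 39 genes were higher with LPS than with IL-1β (Psma3 and Psma6), and the median was 0.052. That fit has fewer LPS libraries, and calls over all genes also fell, from 3791 to 1979. No other pair of libraries was left out. Without LPS replicate 3 alone 11 were called, without LPS replicate 4 alone 9, and without IL-1β replicate 4 alone 9. Against control, leaving out both LPS replicates gave 1 gene higher (Psma6) and 4 lower (Psmd8, Psmc5, Psmd3 and Psmd13), with a median of -0.034. Psmd5 was no longer called higher with LPS than with IL-1β without IL-1β replicate 4 (0.11).

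Genes around the proteasome were read from short lists, chosen with earlier results of these data known. Their counts stand beside the shares of all genes given above, which were 22.5% higher and 20.0% lower with LPS, and 24.7% higher and 23.0% lower with IL-1β. Of the maturation factor Pomp and the subunits Adrm1 and Shfm1, Adrm1 fell with LPS (-0.099) and Pomp with IL-1β (-0.093). Of the 5 inducible subunits and PA28 activators, 3 rose with LPS, and 3 fell with IL-1β. Psme2, a PA28 subunit, rose with LPS, by 0.21 ± 0.044 (SE; adjusted p = 0.000245). Of the other activators, Psme4 fell with IL-1β (-0.067) and Psme3 was not called. The Adrm1, Pomp and Psme4 calls were lost with library size alone (-0.060, -0.043 and -0.017), and that of Adrm1 also without LPS replicates 3 and 4 (-0.094). The Pomp call was lost too without control replicate 1 (-0.086) or 4 (-0.082) or IL-1β replicate 1 (-0.098), 2 (-0.071) or 4 (-0.089). The Psme4 call was lost without control replicate 1 (-0.066), 2 (-0.063) or 3 (-0.063) or IL-1β replicate 2 (-0.052) or 3 (-0.067).

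Among 7 regulators of proteasome genes, 3 rose and 1 fell with LPS, and 1 rose and 3 fell with IL-1β. Called in either direction were thus 4 of 7 with each treatment, near the 42.5% of all genes with LPS and 47.7% with IL-1β, so the count is no result about these genes. Nfe2l1, which raises proteasome gene transcription when the proteasome is blocked, had 365, 371, 369.7 and 367 CPM in LPS cultures, 350.5, 350.5, 334 and 342 CPM in IL-1β cultures and 355, 378, 354 and 370.2 CPM in control cultures. Its IL-1β libraries were the lowest, and it fell with IL-1β, with a log2 fold change of -0.083 ± 0.027 (SE; adjusted p = 0.0143). The call was lost with library size alone (-0.032) and without control replicate 2 (-0.065) or IL-1β replicate 3 (-0.068). Nfe2l2, the factor of the oxidative stress response, had 395, 399, 412 and 406 CPM in LPS cultures, 329, 323, 333 and 319 CPM in IL-1β cultures and 354, 338, 348 and 336 CPM in control cultures. All LPS libraries lay above all others. Nfe2l2 rose with LPS, with a log2 fold change of 0.23 ± 0.027 (SE; adjusted p = 4.59e-08), and fell with IL-1β, with -0.077 ± 0.027 (SE; adjusted p = 0.0188). The IL-1β call was lost with library size alone (-0.027) and without control replicate 1 (-0.064) or 3 (-0.072) or IL-1β replicate 2 (-0.073) or 4 (-0.069). Stat3, a cytokine signal transducer, rose with both treatments (0.38 with LPS and 0.45 with IL-1β). Foxo4, a forkhead factor, fell with IL-1β (-0.16), and Ngly1, the deglycosylating enzyme that processes Nfe2l1, fell with LPS (-0.13), a call lost with library size alone (-0.094) and without LPS replicate 1 (-0.11) or control replicate 1 (-0.11).

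Of 13 proteasome-associated genes, 3 rose and 1 fell with LPS and 4 fell with IL-1β. The counts of 3 higher with LPS and 4 lower with IL-1β are near the shares of all genes (22.5% and 23.0%). Rad23b, a shuttle that carries ubiquitinated proteins to the proteasome, had 330.3, 329, 368 and 353 CPM in LPS cultures, 315, 298, 309.8 and 300.3 CPM in IL-1β cultures and 356, 339.6, 345 and 355 CPM in control cultures. Its IL-1β libraries lay below all others, and it fell with IL-1β, with a log2 fold change of -0.19 ± 0.033 (SE; adjusted p = 2e-05). Zfand5, a zinc finger protein that binds the proteasome, rose with LPS, with a log2 fold change of 0.28 ± 0.031 (SE; adjusted p = 1.83e-08). Zfand2a, a stress-induced relative of Zfand5, fell with IL-1β (-0.45) and with LPS (-0.27), the LPS call being lost without LPS replicate 1 (-0.23), 2 (-0.22) or 4 (-0.25) or control replicate 1 (-0.26), 2 (-0.26) or 3 (-0.27). The shuttle Ubqln2 (-0.12) and the deubiquitinase Usp14 (-0.11) also fell with IL-1β, and Ubqln4 rose with LPS (0.10). The calls of Ubqln2 (-0.067) and Usp14 (-0.060) were lost with library size alone, that of Usp14 also without IL-1β replicate 2 (-0.090), and that of Ubqln4 without LPS replicates 3 and 4 (0.078). Of 11 genes for ubiquitin, its activating enzymes and the unfoldase Vcp with its cofactors, 3 rose with LPS, and 3 rose and 2 fell with IL-1β, near the shares of all genes (22.5% higher with LPS, 24.7% higher and 23.0% lower with IL-1β). Uba6, an activating enzyme, rose with both (0.32 with LPS and 0.39 with IL-1β), as did Rps27a, which encodes ubiquitin fused to a ribosomal protein (0.13 with LPS and 0.15 with IL-1β). Vcp, which pulls ubiquitinated proteins out of complexes and membranes, fell with IL-1β, with a log2 fold change of -0.11 ± 0.025 (SE; adjusted p = 0.000544). These calls of Rad23b, Zfand5, Uba6, Rps27a and Vcp held in every alternative run at the same threshold.

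Some counts may be shared with other rows. On GRCr8, 11 of the 39 genes overlap the span of another gene, 4 of them that of a gene with its own row in the table (Psmb1 with Tbp, Psmc6 with Styx, Psmd1 with Htr2b and Psmd8 with LOC103689966). The library kit marks the strand, but whether the counting used it is not given in the sources used here, so reads of overlapping genes on opposite strands may not be told apart.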

How the data were processed

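Per the labels, RNA was prepared with a stranded poly(A) kit and sequenced on an Illumina HiSeq4000. The submitters' processing notes name TopHat2 2.1.1, SAMtools, DESeq2 and the build Rnor_6.0; the counting program and annotation are not given in the sources used here. Values in the table the authors deposited are whole-number read counts for each symbol, not normalized. Here they were tested with edgeR 4.0.16 in R 4.3.3: filterByExpr (17330 genes kept), TMM factors, robust glmQLFit on all 12 libraries with group as the sole term, and two-sided quasi-likelihood F-tests with Benjamini-Hochberg adjustment over all genes. CPM used TMM-scaled totals, and SE is the absolute log2 fold change over the square root of F. The 39 genes and all lists were chosen with earlier results of these data known. Most genes given in every library are the highest and lowest of each role group, the cutting subunits, and genes called against their group. From each other list the 3 genes with the smallest p were eligible. Genes beside these, such as Psmb3, were named or given in every library after their values were seen. Alternatives were DESeq2 1.42.0, limma-voom (limma 3.58.1), other scalings and filters, 8-library fits, a replicate block, a threshold of 0.01, the 10 most abundant genes left out, each library left out, and, added after seeing the data, LPS replicates 3 and 4 left out. The fit was also run on simulated data in which few genes changed, up and down in equal number. That run cannot address the scaling of libraries, since a large share of all genes was called here.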

Additional observations from a re-analysis of the deposited data

Results flagged for a closer look

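In 126 groups of 4 libraries (39 genes and 3 summed values, in 3 treatments), the gap of the lowest or highest library to the next, as a share of the group's range, was above Dixon's 95% critical value in 4. Chance gives about 1 in 20 groups. In LPS cultures, replicate 3 had 117 CPM of Psmc6, against 100.1 to 102 CPM in the other LPS libraries. In IL-1β cultures, replicate 4 had 114 CPM of Psma2, against 122 to 123 CPM in the others, and 59.2 CPM of Psmb3, against 57.8 to 57.9 CPM. In control cultures, replicate 1 had 127 CPM of Psma4, against 129.9 to 130.3 CPM.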

How the results depend on the processing

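For IL-1β against control, 6 of the 21 called genes kept their call in all 24 alternatives (Psmc2, Psmd1, Psmd4, Psmd5, Psmd8 and Psmd13), as did 2 of 3 for LPS against control and 2 of 17 for LPS against IL-1β. No called gene changed direction. Library size alone gave 9 genes higher with LPS (median 0.038), and with IL-1β 2 higher, 6 lower and a median of -0.028. The count higher with LPS was 1 with upper-quartile factors, at least 2 CPM in 4 libraries, the 10 most abundant genes left out, 8 libraries, DESeq2 or a threshold of 0.01. The count higher with IL-1β was 0 with DESeq2 size factors, no low-count filter, the 10 most abundant genes left out, DESeq2 or a threshold of 0.01. At 0.01, 12 genes were lower with IL-1β, 8 were higher with LPS than with IL-1β, and 2202 genes of all were called between the treatments. Without LPS replicates 3 and 4, LPS gave 1 higher and 4 lower against control (median -0.034), 2 higher against IL-1β (median 0.052) and 1979 genes of all called against IL-1β. The percent of counts without the 10 most abundant genes was 0.431 with LPS, 0.409 with IL-1β and 0.419 in control. The cause of these shifts was not tested. Leaving out 1 library at a time gave 17 to 21 lower and 0 to 1 higher with IL-1β (median -0.090 to -0.076), 1 to 5 higher and 1 to 2 lower with LPS, and 9 to 22 higher for LPS against IL-1β. Deviations of same-numbered libraries correlated weakly (-0.033 to 0.12, median 0.027, above 0 in 11 of 12 pairs and above 0.1 in 1), against -0.075 to 0.056 (median -0.012, 36 pairs) for different numbers, and 4 of 12 libraries correlated best with their own number in both other groups. Of the pairs with different numbers, 12 of 36 were above 0, so same-numbered libraries were slightly more alike. The labels do not say that a number is shared between groups, and the main fit had no replicate block. With the replicate block, 21 genes were lower and 1 higher with IL-1β, 3 higher and 1 lower with LPS, and 18 higher for LPS against IL-1β, and calls over all genes went up to 7730, 8544 and 4256 (LPS and IL-1β against control, and LPS against IL-1β), against 7358, 8261 and 3791. Among the 39 genes, depth limits Psmd10 most, with 57 counts in its lowest library.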
